A study of Mus musculus with 8 samples.

Results

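The genes for the proteins of the cytosolic ribosome were examined in retinas of C57BL/6J mice aged 17 days with oxygen-induced retinopathy (OIR), a model in which pups are exposed to high oxygen so that retinal vessels are lost and then regrow abnormally. Members were chosen by gene symbol (Rpl or Rps with a number, an optional letter and a last digit, Rplp0 to Rplp2, and Rpsa), with symbols ending in -ps left out. This gave 89 of the 57010 genes listed, 53 of the large subunit and 36 of the small. The control group (AAV_NC, 4 libraries) received a control scAAV, a self-complementary adeno-associated virus vector. The other group (AAV_sh, 4 libraries) received an scAAV that lowers the long noncoding RNA MM2P. All 8 libraries come from retinas of animals with OIR and a vector, so no library shows a healthy or an uninjected retina. The design text calls this a knockdown, the word used here, although a treatment label has KO. The labels name no promoter, serotype or target cell of the vector. The labels do not say whether libraries of a group came from separate animals. The p-values therefore set the group difference against the spread between these libraries, which may be technical.

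Each cytosolic ribosome holds a single copy of nearly every ribosomal protein, in a small subunit that reads the mRNA and a large subunit that joins amino acids, and cells make the proteins in matched amounts. Their mRNAs are short and abundant. They mostly begin with a 5′ terminal oligopyrimidine (TOP) tract, a C at the start followed by a run of C and T, through which mTORC1 and the RNA-binding protein Larp1 control their translation together. In the retina, photoreceptors renew their outer segments throughout life and therefore keep protein synthesis high.

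The TOP tract is shown because it is the feature these genes are known to share. Whether it bears on their levels across libraries was not tested. RefSeq promoter windows (GRCm38.p6) were matched for 64 of the 89 members. The annotated start was a C followed by at least 4 more C or T, on the gene's strand, in 14 of those 64 (21.9%) against 3.01% of 27025 genes of the table with a window. A run of at least 8 C or T lay within 50 bases of the start on the gene's strand in 82.8% of members and in 39.3% of all genes, and on the opposite strand in 23.4% of members and 41.1% of all genes. In the 5 windows that follow, 30 bases each and centred on the start, capitals mark the pyrimidine run from the annotated start. These 5 were picked from the 14 members with such a run. The sixth, of Rps27l, has no such run at this annotated start, like most of the 64 members, and is shown beside that of Rps27.

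Rps6, chr4:86857353-86857382, minus strand: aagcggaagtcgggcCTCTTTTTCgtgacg
Rpl15, chr14:18270972-18271001, minus strand: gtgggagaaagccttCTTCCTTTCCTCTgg
Rpl35, chr2:39005117-39005146, minus strand: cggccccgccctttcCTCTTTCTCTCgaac
Rpl38, chr11:114668565-114668594, plus strand: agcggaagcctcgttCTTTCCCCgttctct
Rps27, chr3:90213634-90213663, minus strand: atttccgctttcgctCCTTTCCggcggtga
Rps27l, chr9:66946071-66946100, plus strand: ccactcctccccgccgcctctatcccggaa

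Library totals were 16025695 to 21402898 estimated counts, and 3 counts correspond to 0.14 to 0.19 CPM, counts scaled by the size of the library. The targeted RNA was near that limit. Mm2pr, as it is listed, ranged from 1 to 16.95 counts over the control libraries and from 0 to 20.61 over the knockdown libraries, so it does not check the labels. The tissue label fits rod genes, which summed to between 40525 and 46049 CPM in every library. Of 14 tested lens genes 7 were called higher in the knockdown group, where all 18 lens genes listed summed to 17.6 to 172 CPM against 5.18 to 6.46 in controls. Their part in the results below was not tested.

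The ribosomal protein genes were among the abundant mRNAs of this tissue, and their levels spanned a wide range. Levels between genes are compared in TPM, which scales counts by gene length as well as by library. Of the 89 members, 87 had a count in some library, 81 reached a mean of 10 TPM and 69 reached 100 TPM. Together they held 3.02% of all TPM and, being short, 1.06% of all counts. The highest was Rps15, a small-subunit protein near the decoding centre, at 1163 TPM on average and between 1024 and 1349 TPM over the libraries. Rpl23a, which lies at the exit of the peptide tunnel and docks the signal recognition particle, followed at 1006 TPM, then Rps14 at 959, Rpl7 at 942 and Rps7 at 801 TPM. The ranges of these 5 genes over the libraries overlapped between neighbours. Whether their order held within each library was not examined, so the order given is that of the means only.

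**Figure D1:**
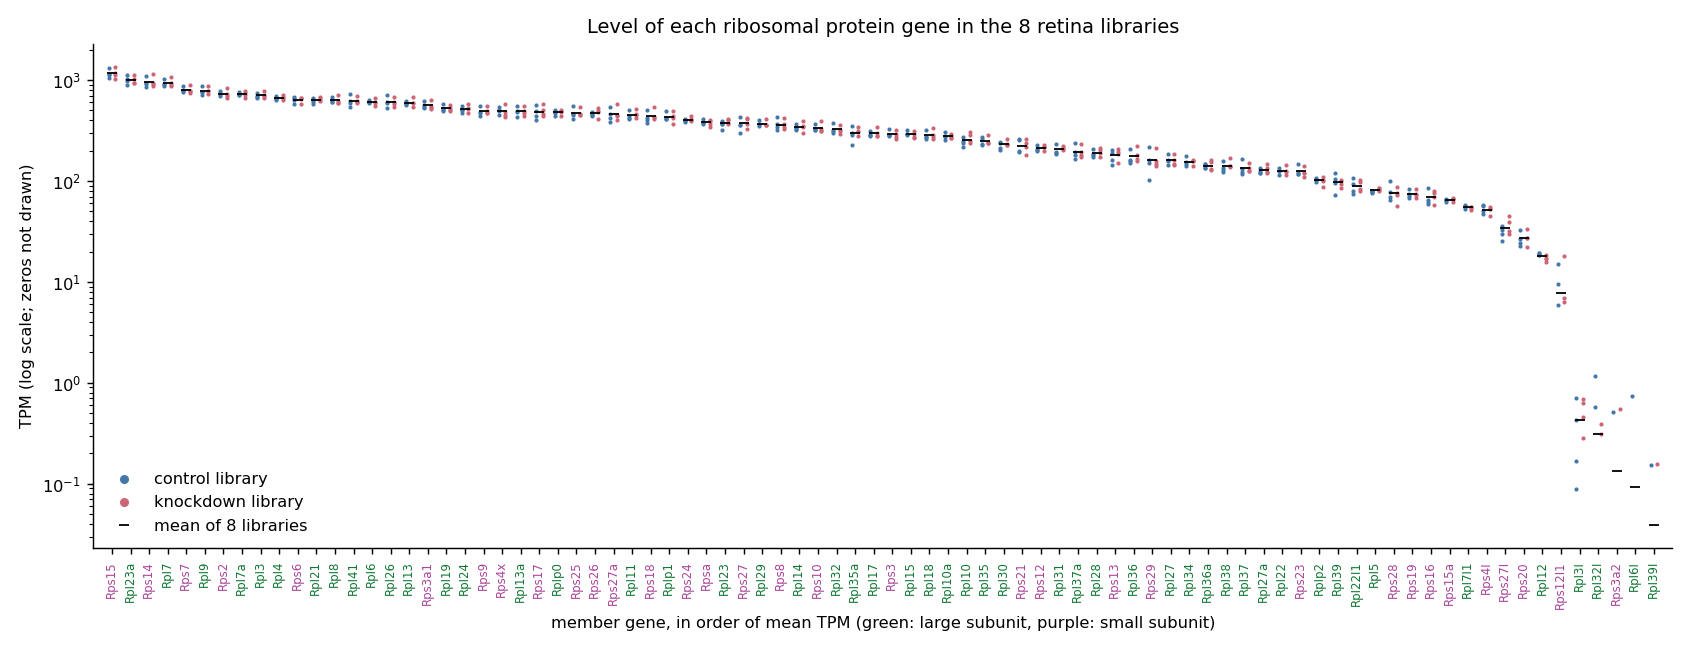
TPM on a log axis for 84 of the 87 members with a count, in order of mean TPM, with blue points for control libraries, red points for knockdown libraries and a bar for the mean of 8. From Rps15 at 1163 TPM the levels fall slowly through most of the list and then steeply, and the blue and red points of a gene overlap.

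At the low end, 7 members did not reach the limit for testing, 1 TPM in at least 4 libraries. Rpl10l, an intronless copy of Rpl10 used in male germ cells, and Rps3a3 had no count in any library. Rpl39l, a germline form of Rpl39, had 1 count in control 2 and 1 in knockdown 1. Rpl3l, the form of Rpl3 used in heart and skeletal muscle, had 37 counts over all libraries and a mean of 0.433 TPM beside 704 TPM for Rpl3. Rpl32l, Rpl6l and Rps3a2 had between 5.3 and 8.01 counts in all. In the GENCODE M21 annotation 83 members are protein coding and 6 are pseudogenes despite their symbols: Rps4l, Rps12l1, Rpl32l, Rpl6l, Rps3a2 and Rps3a3. Some ribosomal protein or ribosome-bound genes fall outside the symbol rule. Fau encodes a ubiquitin-like fusion with a ribosomal protein, Rack1 a scaffold of the small subunit and Rpl36al a copy of Rpl36a. Rack1 was at 165 ± 13.6 CPM in controls and 159.7 ± 20.1 CPM in the knockdown group (SD, n = 4 each), and none of these genes was called by edgeR, also not at an unadjusted p under 0.05 or in DESeq2 or limma.

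No ribosomal protein gene differed between the groups in the edgeR quasi-likelihood test. Of the 82 tested members, 48 of the large and 34 of the small subunit, 0 were called at an adjusted p under 0.05, beside 0.062% of all 16118 tested genes (0.0434% higher and 0.0186% lower, 10 genes together). At an unadjusted p under 0.05 there were also 0 members, beside 5.27% of all tested genes. DESeq2 and limma likewise called 0 members, and 0 at an unadjusted p under 0.05. The groups overlapped for all 82, while 3.31% of tested genes had groups that did not overlap. The smallest unadjusted p was 0.127, for Rpl5, and adjusted p ran from 0.971 to 0.9999.

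Fold changes are given as log2 of knockdown over control. They ran from -0.16 for Rpl12 to 0.23 for Rps27l, with a median of 0.014, against a median of 0.0039 over all tested genes. They were above 0 for 52 members and below 0 for 30. The median of the large subunit was 0.014 and that of the small subunit 0.013. The 95% interval lay within 1.25-fold in either direction for 67 of the 82 members, within 1.5-fold for 80 and within 2-fold for 81. Only Rps12l1, an annotated pseudogene with counts between 0 and 2.87 CPM, exceeded 2-fold with an interval of -1.70 to 1.78.

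**Figure D2:**
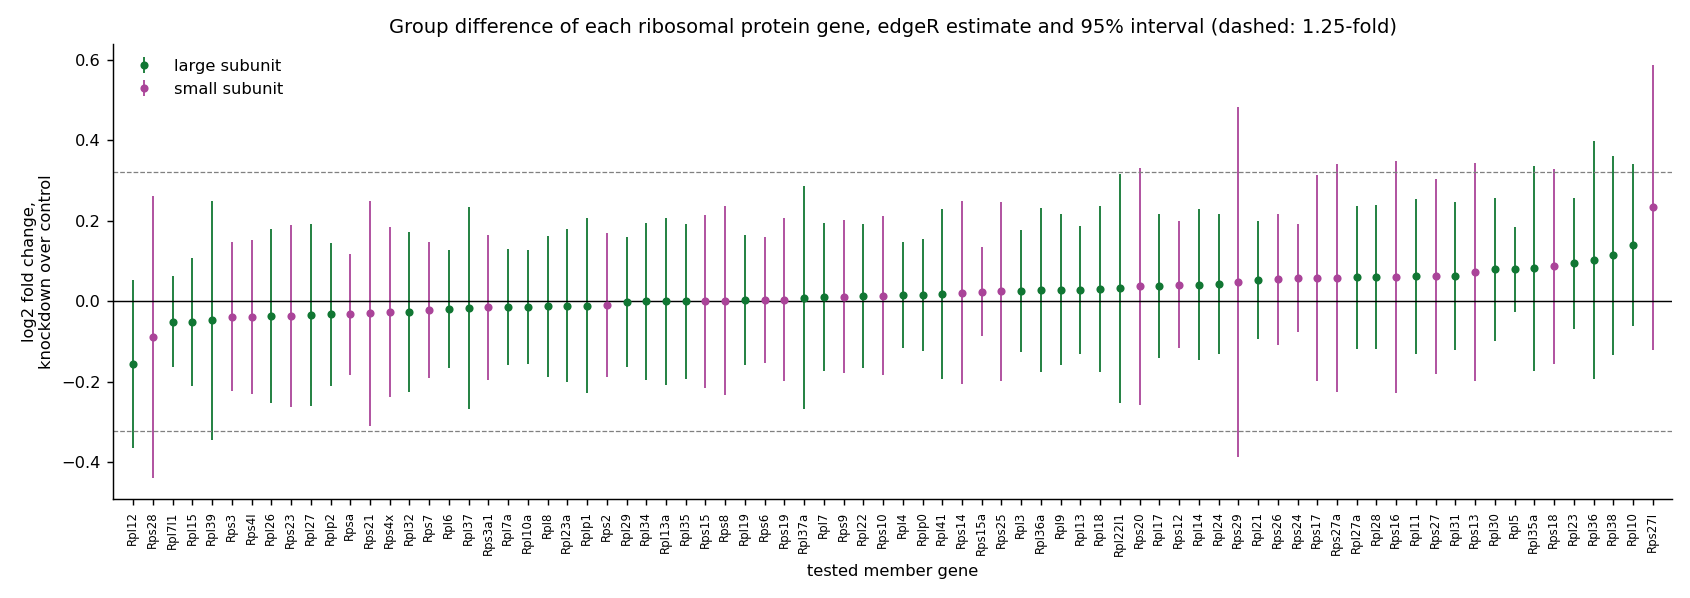
edgeR log2 fold change of 78 tested members (points) with 95% intervals (lines), green for the large and purple for the small subunit, and dashed lines at 1.25-fold. Every interval drawn crosses 0, and the estimates run from -0.16 (Rpl12) to 0.23 (Rps27l).

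The largest upward estimate belonged to Rps27l, a close copy of Rps27 that is known as a p53 target. It was at 6.80, 5.81, 7.64 and 8.73 CPM in controls 1 to 4 and at 10.97, 7.35, 8.93 and 6.89 CPM in knockdowns 1 to 4. Knockdown 1 was the highest library, and knockdown 2 and 4 lay inside the control range. The log2 fold change was 0.23 ± 0.16 (SE), with an edgeR adjusted p of 0.989. Rpl10, which completes the peptidyl transferase side of the large subunit late in assembly, was at 78.8, 68.2, 88.3 and 80.1 CPM in controls and 103, 79.3, 89.6 and 76.0 CPM in the knockdown group. Again knockdown 1 stood highest and the groups overlapped (0.14 ± 0.093, SE). With its counts under pseudogenes added, the estimate of Rpl10 was 0.0040 (see the account of pseudogenes). Rpl38, known for its role in translating Hox mRNAs, was estimated at 0.11 ± 0.11, Rpl36 at 0.10 ± 0.14 and Rpl23 at 0.094 ± 0.076 (SE).

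Rpl12, at the base of the stalk, had the lowest estimate. It was at 9.50, 9.03, 9.86 and 9.66 CPM in controls 1 to 4 and at 8.23, 8.39, 9.05 and 8.53 CPM in knockdowns 1 to 4. Of the knockdown libraries only knockdown 3 reached into the control range, just above control 2, and the fold change of -0.16 ± 0.097 (SE) had an edgeR adjusted p of 0.971. This row holds a small part of the reads that match Rpl12 (see the account of pseudogenes). Rps28 was estimated at -0.089 ± 0.16 and Rpl7l1 at -0.051 ± 0.052 (SE).

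By role, the proteins of the lateral stalk, which recruits the translation factors with GTPase activity, had 0 of 4 genes called. Rplp0, the scaffold of the stalk, was at 262 ± 18.4 CPM in controls and 264 ± 20.5 CPM in the knockdown group (SD, n = 4 each). Its partners Rplp1 and Rplp2 were estimated at -0.011 ± 0.10 and -0.033 ± 0.082 (SE). Among these 3 the levels per length differed, with means of 478 TPM for Rplp0, 432 TPM for Rplp1 and 101 TPM for Rplp2, and the highest Rplp2 library, 109.8 TPM, lay below the lowest Rplp1 library, 364 TPM.

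The partners of 5S rRNA, Rpl5 and Rpl11, bind and inhibit Mdm2 when ribosome assembly is disturbed. Rpl5 was at 65.8, 63.7, 63.8 and 67.4 CPM in controls 1 to 4 and 71.0, 65.8, 68.9 and 69.9 CPM in knockdowns 1 to 4. Knockdown 1, 3 and 4 were above every control and knockdown 2 was not (0.079 ± 0.049, SE, edgeR adjusted p = 0.971). Most counts that match Rpl5 are listed under pseudogenes, and with these added its estimate was -0.00060 (see the account of pseudogenes). Rpl11 was at 149 ± 17.6 CPM in controls and 156 ± 19.0 CPM in the knockdown group (SD, n = 4 each), and control 4 exceeded knockdown 2, 3 and 4. Of 18 tested p53 and nucleolar stress genes 0 were called.

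The 9 tested proteins around the peptide exit tunnel, among them Rpl39, Rpl4 and Rpl17, had estimates between -0.048 and 0.063. The 3 proteins at the mRNA entry channel (Rps2, Rps3, Rps9) had estimates between -0.038 and 0.011, and the 5 on the mRNA exit side (among them Rps28 and Rpsa) between -0.089 and 0.055. Of 9 genes mutated in Diamond-Blackfan anaemia, a human failure of red cell production, 8 were above 0 and 0 were called. Rps19, the most often mutated of them, was at 38.5 ± 4.73 CPM in controls and 38.7 ± 4.36 CPM in the knockdown group (SD, n = 4 each). Rps6, the target of S6 kinase, was at 227 ± 19.7 and 227 ± 19.8 CPM, and Rpl13a, which can leave the ribosome as part of an inflammatory translation silencer, at 208 ± 28.3 and 208 ± 25.8 CPM. Rpsa, also known as a laminin receptor, was at 302 ± 20.7 and 295 ± 28.2 CPM.

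Several members come as a main form and a variant made from another locus. The share of the variant in the TPM of its pair overlapped between the groups for the 4 pairs with a tested variant. The variants Rpl3l, Rpl10l and Rpl39l were at or near 0, so the overlap of their shares carries no information. Rpl22l1 made up 41.1% ± 2.39 of its pair with Rpl22 in controls and 41.6% ± 1.68 in the knockdown group (SD, n = 4 each), and ranged from 38.8% to 43.8% over the libraries. Rps4l, annotated as a transcribed pseudogene, held 9.66% ± 1.38 and 9.59% ± 0.978 of its pair with the X-linked Rps4x. Rpl7l1, a nucleolar relative of Rpl7, held 5.62% ± 0.514 and 5.41% ± 0.479. Rps27l held 7.88% ± 0.328 of its pair with Rps27 in controls and 8.72% ± 0.793 in the knockdown group. The highest share was that of knockdown 1, 9.78%, and knockdown 2, at 7.93%, lay inside the control range of 7.56% to 8.33%.

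The pair Rps27 and Rps27l shows how far such copies can be told apart. Their coding sequences are 255 bases each, 194 identical and 61 different (76.1% identity), and they are given from GENCODE M21 with the differing bases in capitals. No stretch of 150 bases of the Rps27l transcript recurs in a transcript of another gene, and its estimated counts are whole numbers in all libraries. For Rps27 34.8% of such stretches recur, in Gm17241 and Rps27rt and not in Rps27l. The Rps27 side of their share is therefore less certain.

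Rps27: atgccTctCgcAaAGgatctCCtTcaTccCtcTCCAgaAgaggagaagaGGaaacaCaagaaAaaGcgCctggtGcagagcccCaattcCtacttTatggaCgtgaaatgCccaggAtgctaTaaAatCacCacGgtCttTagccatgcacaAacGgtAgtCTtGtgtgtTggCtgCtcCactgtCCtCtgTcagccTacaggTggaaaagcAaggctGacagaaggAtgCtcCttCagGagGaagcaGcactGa
Rps27l: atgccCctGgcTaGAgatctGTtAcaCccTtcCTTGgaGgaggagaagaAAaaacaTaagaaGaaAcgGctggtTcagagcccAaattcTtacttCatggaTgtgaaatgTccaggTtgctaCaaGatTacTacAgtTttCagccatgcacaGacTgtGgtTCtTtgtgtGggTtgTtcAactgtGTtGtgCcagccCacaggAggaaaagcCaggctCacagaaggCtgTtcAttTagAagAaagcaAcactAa

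The variants of Rpl3, Rpl7, Rpl10 and Rpl22 were compared in the same way. Identity over the aligned coding bases ran from 64.8% for Rpl7 and Rpl7l1 to 84.8% for Rpl10 and Rpl10l. The pairs of Rpl39 with Rpl39l and of Rps4x with Rps4l were not compared.

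What the members did share was their order across libraries, which cut across the groups. Their summed CPM was 10244, 9617, 10411 and 11965 in controls 1 to 4 and 12301, 10460.5, 10133 and 9621 in knockdowns 1 to 4. Control 4 and knockdown 1 were high, control 2 and knockdown 4 were low, and the highest sum was 1.28 times the lowest. The group means were 10559 ± 997 and 10629 ± 1167 CPM (SD, n = 4 each), a difference well inside either spread. For 73 of the 82 tested members (89.0%) control 4 and knockdown 1 were the 2 highest libraries, as they were for 9.59% of all tested genes. Knockdown 1 was the highest library for 52 members and control 4 for 27, while control 2 was the lowest for 38 and knockdown 4 for 31. In bulk retina, a change in the share of cells with many ribosomes and a change in mRNA per cell cannot be told apart.

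Expressed as the log2 distance of each gene from its own mean over the libraries, the members' median was -0.053, -0.13, -0.021 and 0.20 in controls 1 to 4 and 0.24, -0.0076, -0.049 and -0.14 in knockdowns 1 to 4. In control 4, 79 of the 82 members were above their own mean, and in knockdown 1, 81 were. In knockdown 4 only 3 were, and in control 2 only 4. Both subunits took part: the median in control 4 was 0.18 for the large and 0.24 for the small subunit, and in knockdown 1 it was 0.23 and 0.26. The spread within groups was accordingly wider than usual, with a median coefficient of variation of 10.9% in controls and 12.2% in the knockdown group, against 8.14% and 9.34% over all tested genes.

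**Figure D3:**
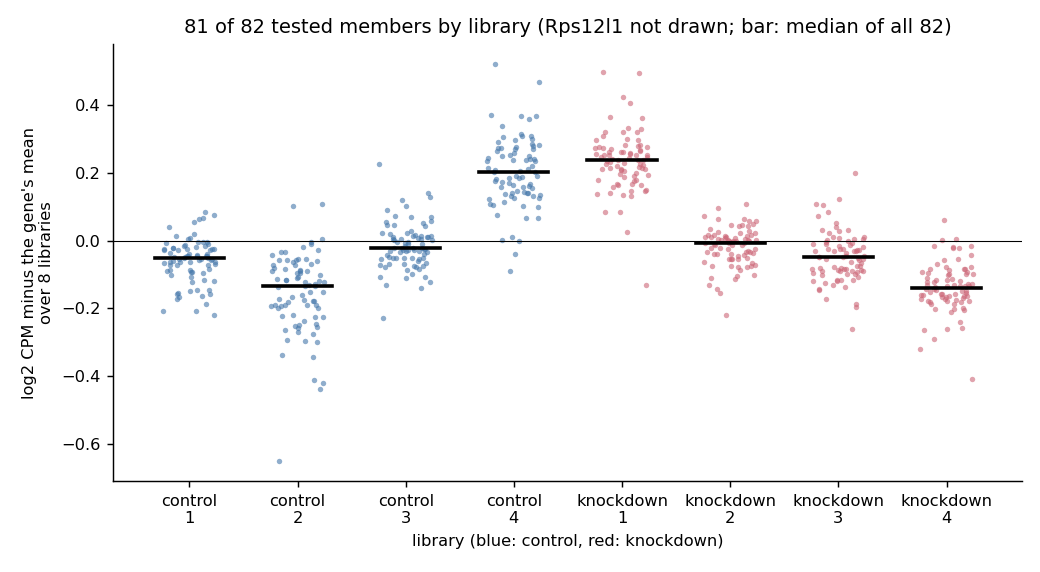
Log2 CPM of 81 tested members relative to each gene's own mean, by library, with a black bar at the median of all 82. The medians of control 4 (0.20) and knockdown 1 (0.24) stand above the other 6 libraries, of both groups.

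The 9 tested members with another pair of highest libraries were Rpl10, Rpl10a, Rpl12, Rpl5, Rpl7l1, Rps12l1, Rps26, Rps27l and Rps4l, listed here because they were the exceptions. Of these, Rpl12, Rpl5, Rpl10 and Rpl10a had between 38.9% and 91.7% of their counts listed under pseudogenes (see their account). Rpl27a, Rpl27 and Rps23 also had most of their counts there and were not exceptions. Whether this listing bears on the exceptions as a set was not tested. Rpl7l1 was at 59.8, 56.8, 60.5 and 57.5 CPM in controls and 58.7, 57.9, 56.7 and 53.3 CPM in the knockdown group, a flat course in which neither control 4 nor knockdown 1 stood out.

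The sign of the members' median depended on single libraries. Without control 4 the median log2 fold change was 0.080 and 77 of 82 members were above 0. Without knockdown 1 it was -0.070 and only 10 were above 0. Without control 2 it was -0.035, and without control 1 -0.0064. With control 4 and knockdown 1 both left out it was 0.0079, 45 members were above 0 and 0 were called.

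The same library order ran through short transcripts in general. Among other tested genes with a mean log2 CPM over 4, the 157 of up to 700 bases had a median distance of 0.14 in control 4 and 0.18 in knockdown 1, and the 579 of over 8000 bases had -0.087 and -0.15. The members were graded in the same direction. The 33 members of up to 700 bases had medians of 0.27 in both of these libraries, the 25 of 700 to 1000 bases 0.18 and 0.24, the 19 of 1000 to 2000 bases 0.14 and 0.19, and the 5 longer ones 0.077 and 0.084. In each of these length classes the members' medians in control 4 and knockdown 1 exceeded those of the other genes. After the length trend of each library was taken out, the members' medians were 0.086 in control 4 and 0.094 in knockdown 1, between -0.069 and -0.0040 in the others, the median log2 fold change was 0.00082, 41 members were above 0 and 0 were called. Whether length, or RNA quality that differs with length, set the pattern was not tested.

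**Figure D4:**
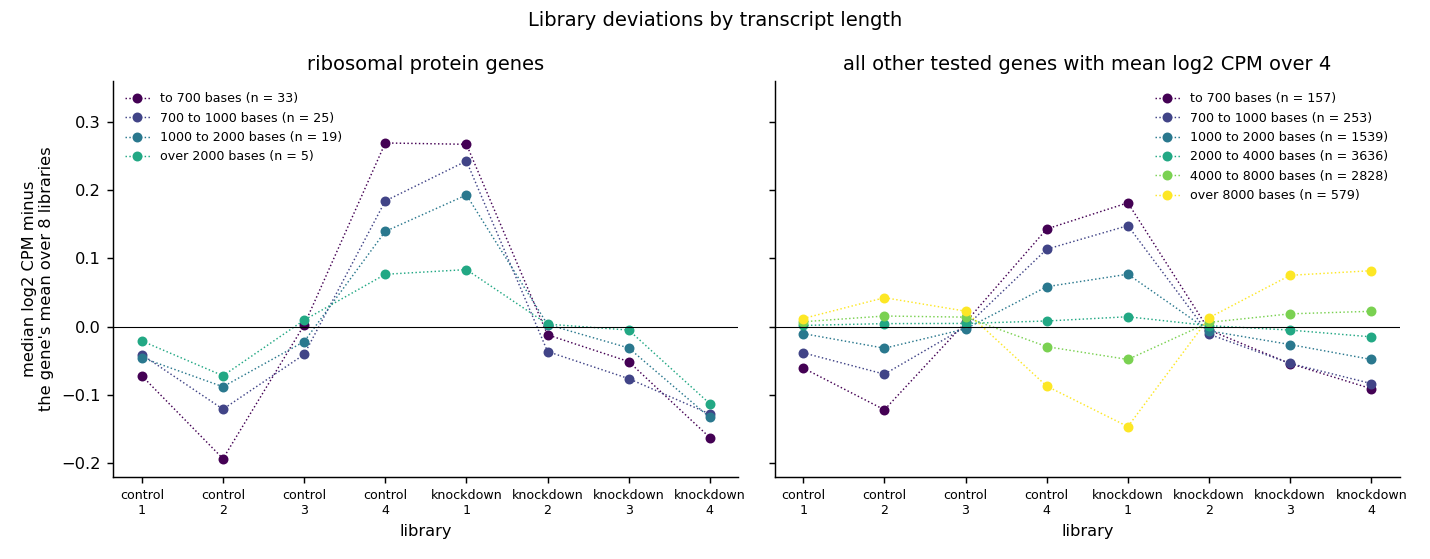
Median log2 CPM relative to each gene's own mean, by library, for length classes of the members (left) and of the other tested genes (right). Dotted lines only join the points of a class. In control 4 and knockdown 1 short transcripts are high and those over 8000 bases low, and the members of up to 700 bases reach 0.27.

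Other gene groups followed the order in part. The 24 further TOP mRNAs, such as Eef1a1 for elongation factor 1 alpha, had medians of 0.074 in control 4 and 0.12 in knockdown 1, and 0 were called. The 78 genes for mitochondrial ribosomal proteins, which are also short, had 0.096 and 0.10. The 13 mitochondrially encoded genes had 0.16 and 0.12. They summed to 38305 CPM in control 4 and 37619.8 CPM in knockdown 1, the highest libraries, and were lowest in control 2 at 31508 CPM, but knockdown 4 followed at 36353 CPM where the members were low. The 60 ribosome assembly factors, such as the nucleolar chaperone Npm1, had 0.013 and 0.040, and the 34 tested genes of RNA polymerases I and III had -0.040 and 0.048. The median length was 2701 bases for the assembly factors, 2387 for the polymerase genes and 2013 for the further TOP mRNAs. Other genes of 2000 to 4000 bases with a mean log2 CPM over 4 had 0.0082 and 0.014. The part of length in the differences between these lists was not tested. In all of these lists, and among the 26 initiation factors, 15 snoRNA host genes and 23 tested mTORC1 and TOP regulators, 0 genes were called.

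Cell type markers also differed between libraries. The sum of the 10 Müller glia markers was highest in the same libraries as the members. It was 6203 CPM in control 4 and 6302 CPM in knockdown 1, against 5616 to 6133 CPM in the others. By median distance knockdown 1 was also highest (0.16), but control 3 (0.053) exceeded control 4 (0.037). The 10 markers of the retinal pigment epithelium likewise summed highest in control 4 and knockdown 1, with 277 and 289 CPM against 216 to 275 CPM. The 12 microglia and macrophage markers summed to 148 CPM in knockdown 1 and to between 79.2 and 100.1 CPM in the other libraries, control 4 included. The 7 erythroid genes summed to 169 CPM in knockdown 1 and 113 CPM in control 4, within a range of 79.8 to 116 CPM for the libraries other than knockdown 1. The 10 ganglion cell markers summed to 1387 CPM in knockdown 1, the lowest library, and 1815 CPM in control 4, the highest. In the edgeR fit 9 of these 10 had estimates below 0 and 1 above. Of the 10, 1 was called lower in the knockdown group, beside 0.0186% of all tested genes. At an unadjusted p under 0.05 there were 5, beside 5.27% of all tested genes. All of these markers had counts, and the part of other cell types and of RNA quality in the members' pattern was not tested.

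Ribosomal protein genes have left many processed copies in the mouse genome, and the deposited table gives such copies rows of their own. By alignment of pseudogene transcripts to the members' transcripts (at least 85% identity over at least 60% of the pseudogene), 1621 rows were assigned to 81 members, and 549 of them had counts. They held 7.997% of the counts of members and copies together. The share was under 1% for 55 tested members, over 10% for 17 and over 50% for 5: Rpl12 (91.7%), Rpl5 (74.9%), Rpl27a (60.7%), Rpl27 (60.4%) and Rps23 (58.4%). For Rpl12 and Rpl5 nearly all of it lay in a single row, Gm10275 (chr10:29698746-29699380) and Gm15500 (chr7:114705217-114706235, GRCm38), which hold the whole coding sequences of 498 and 894 bases without a mismatch. The first 60 coding bases are given for both, as the letters that a read cannot assign to gene or copy.

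Rpl12 and Gm10275: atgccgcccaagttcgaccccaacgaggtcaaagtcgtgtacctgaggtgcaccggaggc
Rpl5 and Gm15500: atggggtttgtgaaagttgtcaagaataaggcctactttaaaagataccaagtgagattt

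The estimates of the members with such copies depended on where reads were listed. With the copies added, Rpl12 was at 107, 107, 101 and 121 CPM in controls and 121, 110.2, 109.9 and 102 CPM in the knockdown group. Control 4 and knockdown 1 then stood highest, as for most members, and the log2 fold change went from -0.16 to 0.022. Rpl5 with its copies was at 258, 258, 264 and 289.9 CPM in controls and 304, 258, 261 and 247 CPM in the knockdown group, again with control 4 and knockdown 1 highest, and its log2 fold change went from 0.079 to -0.00060. Rpl10 went from 0.14 to 0.0040, Rpl31 from 0.063 to 0.012 and Rps13 from 0.072 to -0.0014. These 5 were the members that moved by over 0.05. With the copies added, 0 of all 82 were called, and Rps27l had the highest estimate, 0.23.

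**Figure D5:**
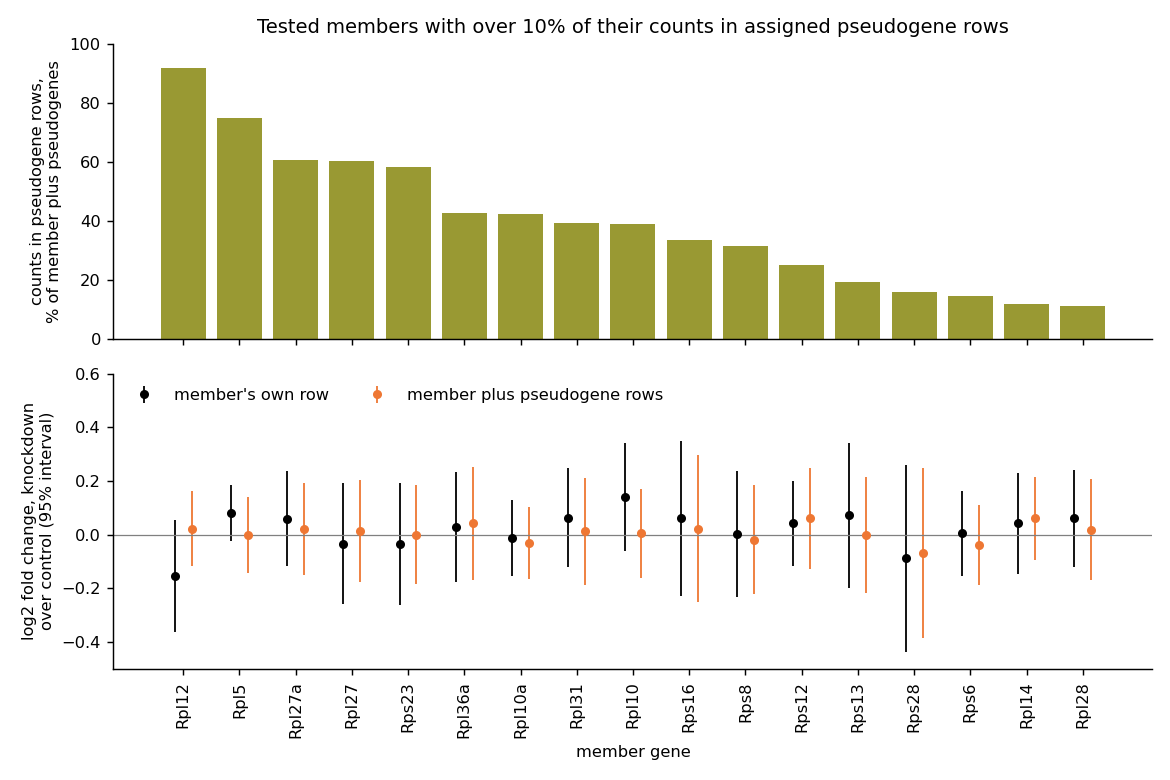
For the 17 tested members with over 10% of their counts under assigned pseudogenes, the bars give that share and the points the edgeR log2 fold change with its 95% interval, black for the member alone and orange with the copies added. The estimates of Rpl12, Rpl5 and Rpl10 move toward 0 when the copies are added.

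The estimated counts, which carry decimals for many members, were exactly whole as deposited (no tolerance) in all 8 libraries for 12 of the 82 tested members, against 62.4% of the other tested genes. Of the tested members 70 had at least 1 stretch of 150 bases that recurs in a transcript of another gene, with a median of 14.2% of such stretches. The share was 82.4% for Rps6 and 81.1% for Rpl36a, and 0 for Rps15, the most abundant member, and for Rps27l. Values of single members with near-identical copies are therefore uncertain in a way the replicate error does not show.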

How the data were processed

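Retinal RNA of 8 libraries was sequenced as paired reads, per the labels' protocols. The authors deposited a table named for TPM whose values are estimated counts per gene, not normalized, as the unequal library totals and partly fractional values show. The program behind the estimates, and how it shared reads, is not given in the sources used here. The submitters' processing notes list Bowtie 0.12.2 and mm9 without saying what for. Estimated counts were rounded for the tests. TPM was computed here from the counts and the gene lengths of the table.

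Genes with at least 1 TPM in at least 4 libraries (16118) were tested with edgeR 4.0.16 in R 4.3.3 (TMM scaling, quasi-likelihood test, Benjamini-Hochberg over all tested genes, called at an adjusted p under 0.05). DESeq2 1.42.0 and limma 3.58.1 on log2(TPM + 1) were alternatives, with other pseudocounts, scalings and filters and with each library left out. The fits were tested on simulated data. CPM uses TMM scaling, except the sums over marker lists and mitochondrially encoded genes, which use all listed genes and library totals. The length trend was a loess curve (span 0.3) of log2 CPM distance on log2 length over the other genes. Sharing between genes used BLAST 2.17.0 and GENCODE M21 transcripts (GRCm38), whose identifiers cover 91.3% of the table. Coding sequences are the longest reading frames of the transcripts. For each variant pair, the frames of the transcripts that aligned with the highest score per base of the longer one were taken. Promoter windows are from RefSeq.

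Members and lists were chosen with earlier results of these data known. Members were named if called, if among the 5 largest or 5 smallest fold changes or the 5 highest or lowest TPM, for their role in the stalk, the 5S particle or a variant pair, if under 3 counts in all, and Rps6, Rps19, Rpl13a, Rpl38 and Rpsa. A few genes that this rule names are not reported here. Further members are named for their pseudogenes or as exceptions, after their values were seen. Of other lists the most abundant genes were named. Totals of 16025695 to 21402898 counts set the precision, and intervals from the fit are for the log2 fold change and rest on the spread between libraries.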

Additional observations from a re-analysis of the deposited data

How the results depend on the processing

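In every alternative run 0 members were called, with edgeR, DESeq2 and limma, under the other scalings and filters, with each library left out, with copies added and with the length trend taken out. The median log2 fold change of the members ran from -0.070 to 0.080 when each library was left out in turn, so its sign is not fixed by these data, and the summed CPM moved by less than the spread between libraries. Members whose groups did not overlap numbered 0 in the main test and 1 without a filter (Rpl12). They numbered 0 to 1 with a library left out and 1 with control 4 and knockdown 1 both left out. The share over all tested genes is given for the main test only (3.31%), and fewer libraries make such a gap more likely. These counts are therefore not a result about the members. Over all tested genes the calls numbered 10 in edgeR, 45 in DESeq2, 9 in limma with a pseudocount of 0.1 and 0 with one of 1 or 5, 157 without a filter, 1 with a mean of at least 5 TPM and 0 to 58 with a library left out. Without control 3 there were 58, without control 4 there was 1, and without control 1 or control 2 there were 0. The cause of these differences was not tested. Of 620 combinations of a named member and an alternative, 82 had a changed sign, all without a call. Of the 31 named tested members, 25 changed sign in some alternative.

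The replicate number as a block gave 11 calls over all genes, 0 among the members and a median of 0.013 for them. Same-numbered libraries did not deviate together (correlations from -0.11 to 0.0091), and no control library correlated best with its own number. Copies, length and the pair of libraries left out were alternatives chosen after seeing the data. Depth limits members under 1 TPM and Rps12l1, and multi-mapped reads limit those with near-identical copies.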

Other observations

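The copies of Rpl27 show a difference in how counts were listed. Rpl27-ps3 and Gm11518 both hold the whole coding sequence of Rpl27, which encodes a large-subunit protein, without a mismatch. In controls 1 to 4 the estimated counts of each were 587.18, 534.77, 652.05 and 716.68, equal for the pair in every library, and in knockdown 1 and knockdown 3 they were 648.1 and 485.87, again equal. In knockdown 2 they were 9.24 for Rpl27-ps3 and 1238 for Gm11518, and in knockdown 4 they were 13.2 and 1077. The sum of the pair in these 2 libraries, 1247 and 1089.8, lay within the range of 972 to 1433 of the other libraries. Rpl27 itself had 690.05 and 792 counts there, within its range of 569 to 975 elsewhere.

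Rps12l1, an annotated processed pseudogene whose transcript recurs entirely in other transcripts in stretches of 150 bases, had 0 CPM in control 1 and knockdown 4 and up to 2.87 CPM in knockdown 2. Rps29, the short zinc-binding protein of the small subunit, had the widest SE of the other tested members, 0.20, and was at 15.8 CPM in control 2 and 35.7 CPM in control 4. Among the 66 sets of 4 libraries examined for a single library far from the others, 0 met the limit used.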
